A study of Mus musculus with 8 samples.

Results

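The genes described here are 10 members of the inflammasome and interleukin 1 family, chosen by name and not by their values: *Il18bp*, *Il18*, *Il1a*, *Il1b*, *Il1rn*, *Il1r1*, *Nlrp3*, *Casp1*, *Pycard* and *Gsdmd*. Each matched 1 of the 46078 gene identifiers counted in the series, and all 10 were among the 14736 genes that passed the filter on low counts. RNA came from stroke infarcts of 8 wild type male C57BL/6J mice aged 18 months. Every mouse had undergone DH stroke, which combines closure of the middle cerebral artery at a distal site with hypoxia, and every infarct was collected 7 weeks afterwards. Starting 1 week after surgery, injections were given under the skin 3 times a week over 6 weeks. They contained PBS (vehicle, n = 4) or 2-hydroxypropyl-β-cyclodextrin at 4 g/kg (HPBCD in the sample labels, HPβCD here, n = 4), a cyclic sugar that holds lipids such as cholesterol. There was no group without stroke and no earlier time point, so the values compare treated with untreated chronic infarcts only. Infarcts were recognized by eye and cut out by hand.

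Inflammasomes are protein assemblies of the cytosol. A sensor such as NLRP3 gathers the adaptor ASC, encoded by *Pycard*, which in turn gathers and activates the protease caspase-1. Caspase-1 cuts the inactive precursors of interleukin 1β and interleukin 18 into active cytokines, and cuts gasdermin D, whose freed end forms pores through which the cytokines leave the cell. Interleukin 1α needs no caspase-1 to be active. It shares the receptor IL1R1 with interleukin 1β, and the receptor antagonist encoded by *Il1rn* occupies that receptor without signalling. Interleukin 18 is held back in the fluid by interleukin 18 binding protein, the product of *Il18bp*. Much of this pathway is controlled by cleavage and release, which transcript counts do not measure. In the brain after stroke, microglia and infiltrating macrophages are known sources of interleukin 1.

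Before the results, the makeup of the libraries is given because bulk infarct tissue holds many cell types. Gene counts ranged from 16.6 to 32.9 M per library, and counts behind the members' values ranged from 41 reads (*Il1b* in HPβCD replicate 2) to 7875 (*Il18bp* in HPβCD replicate 3). Values are given as CPM, the counts of a gene relative to the library total after TMM scaling. Vehicle replicates 1 and 3 stood apart, with summed neuron markers at 1022 and 6048 CPM against 7.84 to 84.3 CPM in the other 6 libraries. Summed macrophage markers ran from 7156 to 16722 CPM in vehicle and from 16905 to 24615 CPM in HPβCD infarcts, and summed foamy macrophage markers from 7302 to 13436 and from 16697 to 28193 CPM. For both lists the groups did not overlap, although edgeR called 0 of 7 macrophage markers and 1 of 7 foamy macrophage markers, and 2 markers of the first list and 1 of the second were lower in HPβCD. Chosen after the values were seen, a sum without the most abundant marker overlapped for macrophages (936 to 1553 and 1330 to 2041 CPM without *Lyz2*) and did not for foamy macrophages (4354 to 7961 and 8221 to 13580 CPM without *Gpnmb*). Thus the separation of the macrophage sums rested on *Lyz2*. B lymphocyte markers had 5 of 5 lower in HPβCD and 2 called, with sums of 135 to 494 and 41.7 to 124 CPM that did not overlap. Astrocyte and oligodendrocyte markers had 6 of 6 lower each, with median log2 fold changes of -1.57 and -1.90 and overlapping sums, and endothelial markers 6 of 6 higher, also with overlapping sums, and edgeR called 0 of these markers. Of the 6 in each of these lists, 4, 0 and 3 had an unadjusted p under 0.05, DESeq2 called 4, 1 and 3, and limma-voom 5, 6 and 3. For comparison, edgeR called 1.95% of all tested genes, and 27.8% had an unadjusted p under 0.05. DESeq2 called 17.0% of the genes it tested and limma-voom 22.1%. Summed microglia markers overlapped, at 513 to 1083 and 668 to 1090 CPM. Neutrophil markers summed to 74.8 to 154 CPM in vehicle and 92.8 to 146 CPM in HPβCD infarcts. Within this list *Ly6g* and *Mpo* stayed at or below 1.02 and 1.50 CPM. *Csf3r* ranged from 45.2 to 56.5 CPM in vehicle and from 45.5 to 93.0 CPM in HPβCD, and *Mmp9* from 17.7 to 71.5 and from 15.9 to 87.2 CPM. In such tissue, fewer cells of a type and less RNA per cell cannot be told apart.

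No member passed the test between HPβCD and vehicle, and those furthest apart were inhibitor and ligand genes, not inflammasome components. *Il18bp*, which encodes the inhibitor of interleukin 18, was 2.32-fold higher in HPβCD infarcts and *Il1a* 1.92-fold higher, and in both the groups did not overlap. *Il1b* lay the other way, 2.36-fold lower in HPβCD on average, with overlapping groups. *Il18*, *Il1rn*, *Il1r1* and the genes of the NLRP3 inflammasome lay within 1.25-fold of vehicle in either direction.

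The quasi-likelihood test of edgeR, with p-values adjusted by Benjamini-Hochberg over all tested genes, called 0 of 10 members at an adjusted p under 0.05, where 1.95% of all tested genes were called. At an unadjusted p under 0.05 there were 4 members (*Il18bp*, *Il1a*, *Il1b* and *Pycard*), or 4 of 10 beside 27.8% of all genes. DESeq2, the tool the study used, called 2 (*Il18bp* and *Il1a*) beside 17.0% of the genes it tested. limma-voom with sample quality weights called 4 (*Il18bp*, *Il1a*, *Il1b* and *Nlrp3*) beside 22.1%. Groups did not overlap, with HPβCD higher, in 2 members, a pattern found in 8.77% of all genes, and in 0 members with HPβCD lower, found in 8.03%. Of the members, 4 had a positive and 6 a negative log2 fold change (HPβCD minus vehicle). Their median was -0.09, close to the median of -0.05 over all tested genes.

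**Figure D1:**
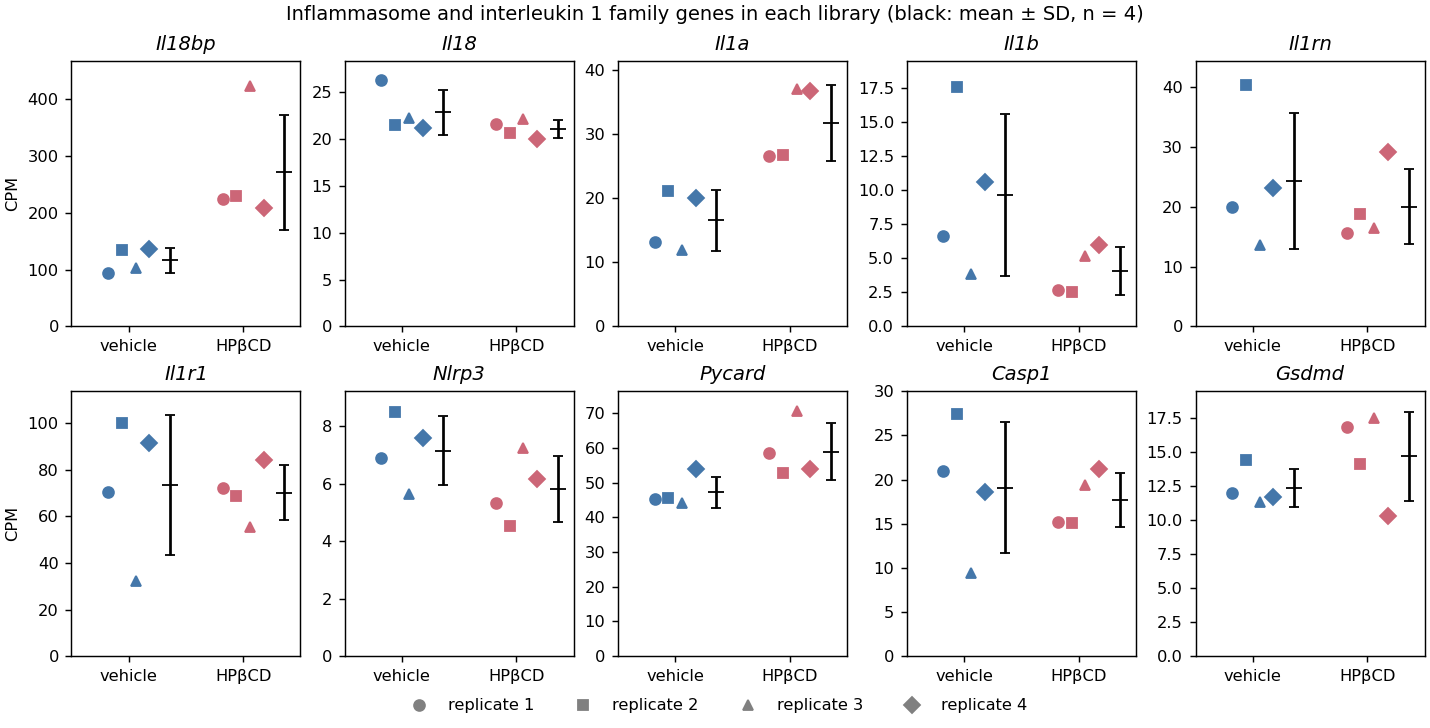
Level of each of the 10 genes (CPM, linear axis from 0) in the 4 vehicle and 4 HPβCD libraries, with a symbol per library and the mean ± SD in black. *Il18bp* and *Il1a* lie higher in every HPβCD library than in any vehicle library, whereas *Il1b* spreads from 3.87 to 17.6 CPM within vehicle and overlaps.

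*Il18bp* (ENSMUSG00000070427) lies on the minus strand of chromosome 7, at 102014885 to 102018690 in GRCm38. It had 94.0, 134, 102 and 136 CPM in vehicle replicates 1 to 4, and 225, 229, 423 and 209 CPM in HPβCD replicates 1 to 4. All HPβCD values lay above all vehicle values, and HPβCD replicate 3 lay far above the other HPβCD libraries. Means were 117 ± 21.8 CPM in vehicle and 272 ± 101 CPM in HPβCD (SD, n = 4 each), which is a log2 fold change of 1.22 (edgeR, SE 0.26, adjusted p = 0.0516). The adjusted p thus missed the threshold narrowly. It was 0.000796 with DESeq2 and 0.0116 with limma-voom. Without HPβCD replicate 3 the difference was 0.93 on the log2 scale (edgeR adjusted p = 0.0899), and without both neuron-rich vehicle libraries it was 1.02 (edgeR adjusted p = 0.120). *Il18bp* was singled out by the study from these same samples, so its direction here is not independent evidence.

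The promoter of *Il18bp* is shown because this gene had the smallest p of all members, and those of *Il1a* and *Il1b* because these neighbours on chromosome 2 lay in opposite directions. Sequences are from RefSeq on GRCm38.p6, from 250 bases before to 50 bases after the annotated start, written 5′ to 3′ on the gene's strand. All 3 genes are on the minus strand. The windows are chr7:102018183-102018482 for *Il18bp*, chr2:129309923-129310222 for *Il1a* and chr2:129371090-129371389 for *Il1b*. Of the 10 members, 9 had an entry in the promoter table used. Capitals mark matches on either strand to 7 letter patterns: GGGNNNNNCC (NF-kappaB), GAAANNGAA (IRF), TTCNNNGAA (STAT), TGANTCA (AP-1), CACGTG (an E-box), GAGGAA (PU.1 and other ETS factors) and TATAAA, a core promoter box.
Il18bp: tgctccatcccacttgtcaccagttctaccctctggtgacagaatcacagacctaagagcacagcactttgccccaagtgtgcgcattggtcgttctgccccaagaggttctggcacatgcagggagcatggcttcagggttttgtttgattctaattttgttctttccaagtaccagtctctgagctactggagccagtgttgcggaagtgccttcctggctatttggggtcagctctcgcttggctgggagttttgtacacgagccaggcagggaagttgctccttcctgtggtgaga
Il1a: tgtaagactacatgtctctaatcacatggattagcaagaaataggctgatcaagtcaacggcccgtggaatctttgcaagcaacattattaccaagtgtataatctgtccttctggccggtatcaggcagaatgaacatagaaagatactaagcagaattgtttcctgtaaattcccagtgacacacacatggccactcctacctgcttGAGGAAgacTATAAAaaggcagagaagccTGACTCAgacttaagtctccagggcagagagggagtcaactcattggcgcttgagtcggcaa
Il1b: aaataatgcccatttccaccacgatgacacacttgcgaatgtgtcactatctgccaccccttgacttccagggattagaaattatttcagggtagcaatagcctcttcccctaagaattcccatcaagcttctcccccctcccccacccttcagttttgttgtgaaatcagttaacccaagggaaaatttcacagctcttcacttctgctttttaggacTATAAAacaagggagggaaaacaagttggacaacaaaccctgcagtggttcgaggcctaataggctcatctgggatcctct

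The *Il1a* window held TATAAA at -32 to -27, GAGGAA at -41 to -36 and an AP-1 match at -12 to -6, counted from the annotated start. The *Il1b* window held TATAAA at -31 to -26 and no other match, and the *Il18bp* window held none. Among 32851 mouse promoter windows of this length, 13.6% held TATAAA, 28.3% GAGGAA, 7.81% the AP-1 pattern, 50.8% GGGNNNNNCC, 8.56% the IRF pattern, 8.30% the STAT pattern and 7.15% CACGTG. A match describes letters only, and a window without a match says nothing of the factor. For *Il18bp* the RefSeq start lay 458 bases inside the first base of the gene in the GENCODE annotation, so the window does not cover every start of that gene.

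*Il18* (ENSMUSG00000039217, chromosome 9, 50554827 to 50581840, plus strand), the cytokine that the product of *Il18bp* binds, was the steadiest member. It had 26.3, 21.5, 22.2 and 21.2 CPM in vehicle and 21.6, 20.6, 22.1 and 20.0 CPM in HPβCD infarcts. The groups overlapped between 21.2 and 22.1 CPM, with vehicle replicates 1 and 3 above that range and HPβCD replicates 2 and 4 below it. Its log2 fold change was -0.11 (edgeR, SE 0.13, adjusted p = 0.610).

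The inhibitor was therefore set against its ligand within each library, where scaling between libraries cancels. The ratio of *Il18bp* to *Il18* counts was 3.57, 6.26, 4.61 and 6.42 in vehicle and 10.4, 11.1, 19.2 and 10.4 in HPβCD infarcts. Counts were not divided by exon length (3.03 kb for *Il18bp* and 1.03 kb for *Il18*). The ratios therefore compare the groups and do not give the excess of inhibitor over ligand transcripts. Every HPβCD ratio lay above every vehicle ratio, and replicate 3 was again the highest. The mean log2 ratio was 2.34 ± 0.40 in vehicle and 3.63 ± 0.43 in HPβCD (SD, n = 4 each). The ratio was 2.43-fold higher in HPβCD (exact permutation test, two-sided, p = 0.0286, adjusted p over 3 ratios = 0.0429, n = 4 per group), and 0.0286 is the smallest p that 4 against 4 allows. With *Il18* steady, this ratio repeats the difference in *Il18bp*. The log2 difference of 1.28 became 0.96 without both neuron-rich vehicle libraries, a design of 2 against 4 whose exact p cannot go below 0.133.

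**Figure D2:**
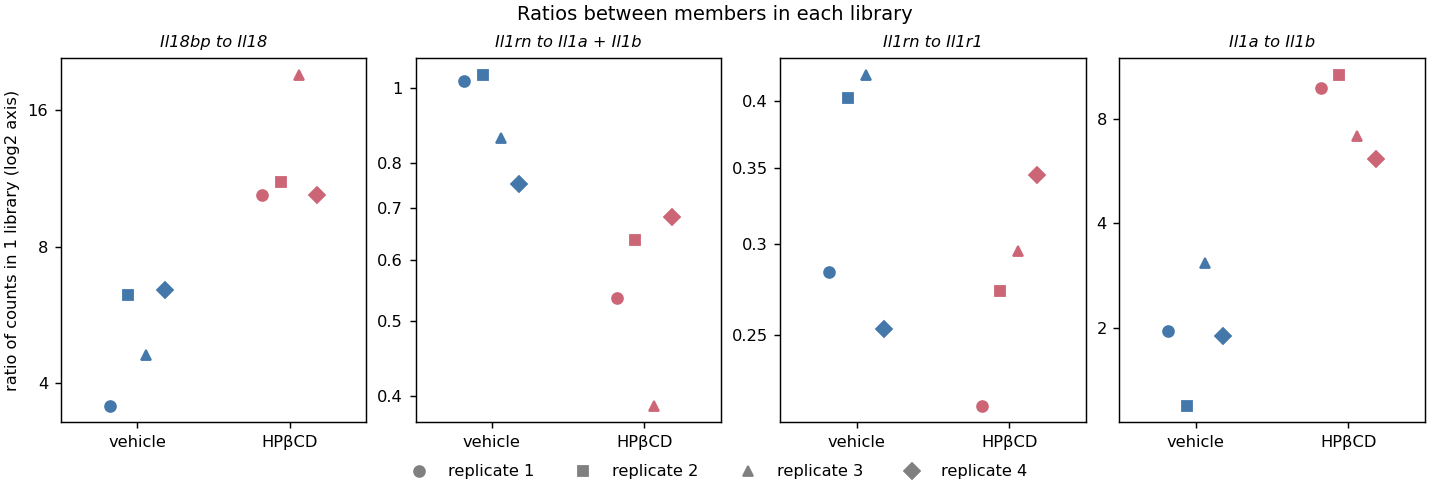
Ratio of counts of 2 genes within each library (log2 axis, a symbol per library) for *Il18bp* to *Il18*, *Il1rn* to *Il1a* plus *Il1b*, *Il1rn* to *Il1r1*, and *Il1a* to *Il1b*. Vehicle and HPβCD libraries overlap only for *Il1rn* to *Il1r1*, and the ratio of *Il1a* to *Il1b* was chosen after the values were seen and was not tested.

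The genes whose log2 CPM followed *Il18bp* most closely over the 8 libraries were *Ctss*, *Cd68* and *Serping1*. These are a lysosomal protease of antigen-presenting cells, a lysosomal glycoprotein of macrophages and the inhibitor of complement C1. Pearson's r was 0.994, 0.988 and 0.987, the highest among 11264 genes whose mean reached 5 CPM. These are descriptions over 8 libraries that share the treatment difference. *Ctss* had 1683, 2140, 1740 and 2113 CPM in vehicle and 3321, 3222, 5476 and 2784 CPM in HPβCD infarcts. Thus *Ctss*, like *Il18bp*, was highest in HPβCD replicate 3. *Cd68* had 104, 152, 116 and 142 CPM in vehicle and 223, 224, 310 and 187 CPM in HPβCD, and *Serping1* ranged from 420 to 717 and from 898 to 2070 CPM. *Cd68* belongs to the macrophage list, whose summed level did not overlap between the groups with *Lyz2* and did without it. That sum was highest in HPβCD replicate 4 with *Lyz2* (24615 CPM) and in HPβCD replicate 3 without it (2041 CPM). The foamy macrophage sum did not overlap with or without *Gpnmb*, and was highest in HPβCD replicate 3 both ways (28193 and 13580 CPM). The part of macrophage content in the *Il18bp* difference was not tested.

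**Figure D3:**
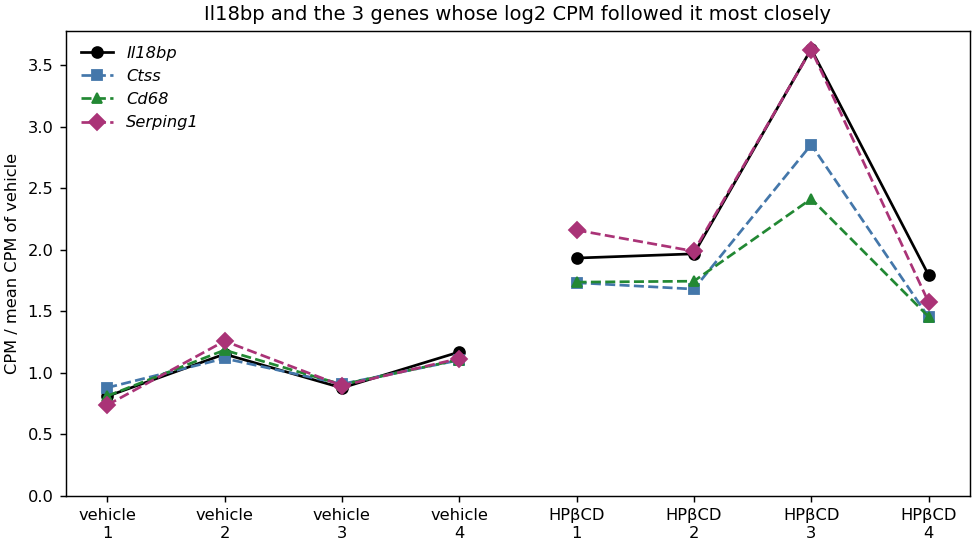
Level of *Il18bp* and of the 3 genes most like it (*Ctss*, *Cd68*, *Serping1*) in each of the 8 libraries, as CPM divided by the mean CPM of the vehicle group. All 4 genes lie near 1 in vehicle libraries, are higher in every HPβCD library and peak in HPβCD replicate 3.

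*Il1a* (ENSMUSG00000027399, chromosome 2, 129299610 to 129309972, minus strand) encodes interleukin 1α, the ligand that acts without caspase-1 and is released by dying cells. Vehicle libraries had 13.1, 21.1, 11.9 and 20.1 CPM and HPβCD libraries 26.5, 26.8, 37.0 and 36.7 CPM. The groups did not overlap, and the lower vehicle values were those of the neuron-rich replicates 1 and 3. Means were 16.6 ± 4.72 and 31.8 ± 5.91 CPM (SD, n = 4 each), which is a log2 fold change of 0.94 (edgeR, SE 0.23, adjusted p = 0.0658). DESeq2 and limma-voom gave adjusted p-values of 0.00730 and 0.0323. Without both neuron-rich libraries the difference was 0.64 on the log2 scale (edgeR adjusted p = 0.128). Of its exon bases, 11.2% lie opposite exons of the predicted gene *Gm14023*.

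*Il1b* (ENSMUSG00000027398, chromosome 2, 129364570 to 129371139, minus strand) lies 54.6 kb from *Il1a* and encodes the ligand that caspase-1 matures. It had 6.62, 17.6, 3.87 and 10.6 CPM in vehicle and 2.70, 2.51, 5.21 and 6.00 CPM in HPβCD infarcts. Vehicle replicates 2 and 4 were the highest, but vehicle replicate 3 lay below HPβCD replicates 3 and 4, so the groups overlapped. Means were 9.68 ± 5.97 and 4.10 ± 1.76 CPM (SD, n = 4 each), which is a log2 fold change of -1.24 (edgeR, SE 0.49, adjusted p = 0.143). Only limma-voom called it (adjusted p = 0.0121), and DESeq2 gave an adjusted p of 0.0779. Without both neuron-rich vehicle libraries the difference was -1.76 on the log2 scale (edgeR adjusted p = 0.0595), moving away from 0 where those of *Il18bp* and *Il1a* moved towards it. Summed monocyte markers were 329, 460, 121 and 299 CPM in vehicle replicates 1 to 4 and 209, 182, 347 and 176 CPM in HPβCD replicates 1 to 4. They were highest in vehicle replicate 2, as was *Il1b*, and lowest in vehicle replicate 3, whereas *Il1b* was lowest in HPβCD replicate 2. Their part in the *Il1b* values was not tested.

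As these neighbouring ligand genes lay in opposite directions, their ratio was computed after both had been seen and is given without a test. There were 1.97, 1.20, 3.08 and 1.90 counts of *Il1a* for each count of *Il1b* in vehicle libraries, and 9.81, 10.7, 7.11 and 6.13 in HPβCD libraries. The lowest HPβCD ratio exceeded the highest vehicle ratio, although *Il1b* itself overlapped. On average the ratio was 4.26-fold higher in HPβCD.

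*Il1rn* (ENSMUSG00000026981, chromosome 2, 24336853 to 24351494, plus strand) encodes the antagonist of the shared receptor. Values were 20.0, 40.3, 13.6 and 23.1 CPM in vehicle and 15.6, 18.7, 16.4 and 29.1 CPM in HPβCD infarcts. Vehicle replicate 2 was the highest, as for *Il1b*, and the groups overlapped. The log2 fold change was -0.28 (edgeR, SE 0.34, adjusted p = 0.635), and it was 0.08 without vehicle replicate 2.

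Relative to the sum of both ligands, however, the antagonist was lower in HPβCD. The ratio of *Il1rn* to *Il1a* plus *Il1b* counts was 1.02, 1.04, 0.862 and 0.751 in vehicle and 0.535, 0.637, 0.389 and 0.681 in HPβCD infarcts. These counts too were not divided by exon length (5.54 kb for *Il1rn*, 1.97 kb for *Il1a* and 1.91 kb for *Il1b*). A single ratio therefore does not compare transcript numbers. No HPβCD library reached the lowest vehicle ratio, but HPβCD replicate 4 came close to it. The ratio was 1.66-fold lower in HPβCD (exact permutation test, two-sided, p = 0.0286, adjusted p over 3 ratios = 0.0429, n = 4 per group). Its mean log2 difference was -0.73, and -0.69 without both neuron-rich vehicle libraries, where the exact test again cannot go below 0.133. *Il1a* made up most of the ligand counts in HPβCD libraries, but the ligands lay in opposite directions. Their edgeR log2 fold changes were 0.94 for *Il1a* and -1.24 for *Il1b*. That of *Il1rn* was -0.28, and -0.65 without both neuron-rich vehicle libraries. A lower *Il1b* count by itself raises the ratio of *Il1rn* to both ligands, and the part of each gene in that ratio was not tested. The ratio of *Il1rn* to *Il1r1*, the antagonist to its receptor, ranged from 0.253 to 0.422 in vehicle and from 0.217 to 0.345 in HPβCD. These ranges overlapped, and the log2 difference was -0.25 (exact permutation test, two-sided, p = 0.314, adjusted p over 3 ratios = 0.314, n = 4 per group).

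*Il1r1* (ENSMUSG00000026072, chromosome 1, 40225080 to 40317257, plus strand), the signalling receptor of interleukin 1α and interleukin 1β, had 70.4, 99.9, 32.3 and 91.4 CPM in vehicle. In HPβCD infarcts it had 72.1, 68.6, 55.5 and 84.3 CPM. Vehicle libraries spanned the whole HPβCD range, with the neuron-rich replicate 3 lowest. Its log2 fold change was -0.07 (edgeR, SE 0.32, adjusted p = 0.911), and the sign turned in 4 of 17 alternative fits.

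Among inflammasome components, the sensor and the protease lay slightly lower and the adaptor and the pore protein slightly higher in HPβCD, none past the test. *Nlrp3* (ENSMUSG00000032691, chromosome 11, 59541568 to 59566956, plus strand), the sensor, had 6.90, 8.50, 5.63 and 7.58 CPM in vehicle and 5.34, 4.53, 7.24 and 6.16 CPM in HPβCD. The groups overlapped, with a log2 fold change of -0.30 (edgeR, SE 0.21, adjusted p = 0.402), and limma-voom alone called it (adjusted p = 0.0460). *Casp1* (ENSMUSG00000025888, chromosome 9, 5298517 to 5307265, plus strand), the protease, had 21.0, 27.4, 9.38 and 18.6 CPM in vehicle and 15.2, 15.1, 19.4 and 21.2 CPM in HPβCD. Here both the highest and the lowest library were vehicle libraries, replicates 2 and 3. The log2 fold change of *Casp1* was -0.11 (edgeR, SE 0.30, adjusted p = 0.846), and it was 0.12 without vehicle replicate 2.

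*Pycard* (ENSMUSG00000030793, chromosome 7, 127989708 to 127993867, minus strand), the adaptor gene, had 45.3, 45.7, 44.0 and 53.8 CPM in vehicle and 58.6, 52.7, 70.6 and 53.8 CPM in HPβCD. Most HPβCD libraries were higher, and the groups overlapped at vehicle replicate 4. The log2 fold change was 0.32 (edgeR, SE 0.14, adjusted p = 0.177). Of its exon bases 12.8% lie opposite the predicted gene *Gm45205*, the largest such share among the members. *Gsdmd* (ENSMUSG00000022575, chromosome 15, 75862327 to 75867408, plus strand), the pore-forming substrate of caspase-1, had 12, 14.4, 11.3 and 11.7 CPM in vehicle and 16.8, 14.1, 17.5 and 10.3 CPM in HPβCD. HPβCD replicates 1 and 3 were above all vehicle libraries and replicate 4 below all of them. The log2 fold change was 0.25 (edgeR, SE 0.20, adjusted p = 0.454).

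**Figure D4:**
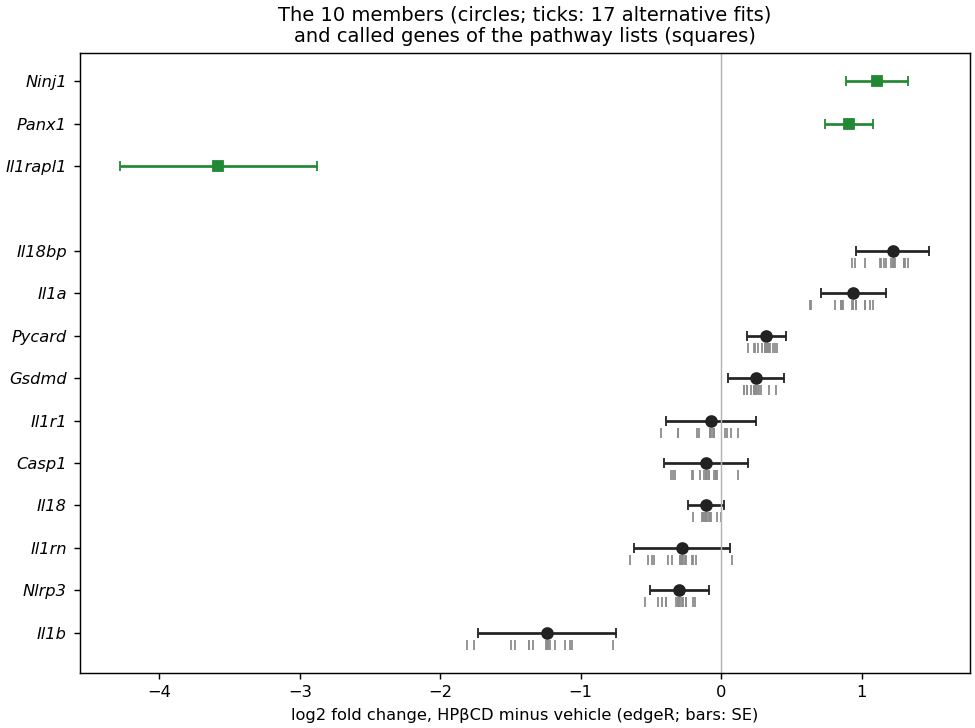
Log2 fold change (HPβCD minus vehicle, edgeR) of the 10 members (circles) and of the 3 called genes of the pathway lists (squares), with bars of ± SE and, under each member, ticks for its 17 alternative fits. *Il18bp* (0.93 to 1.33) and *Il1a* (0.63 to 1.08) stay above 0 and *Il1b* (-1.81 to -0.77) below 0 in each of these fits, whereas ticks of *Il1r1*, *Casp1* and *Il1rn* lie on both sides.

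To compare genes with one another, levels were divided by exon length (CPM per kb of exon). *Il18bp* was the highest member in both groups, with a median of 39.1 in vehicle and 75.0 CPM per kb in HPβCD, and *Il18* came next at 21.2 and 20.5. Neither range met that of the next gene in the order in either group. In vehicle, *Casp1* (13.2), *Il1r1* (12.7) and *Pycard* (12 CPM per kb) followed, with ranges that met one another. *Il1a* (8.40), *Gsdmd* (4.98), *Il1b* (4.51) and *Il1rn* (3.89) came after them, each range meeting the next, and *Nlrp3* was lowest at 1.79 CPM per kb. In HPβCD infarcts *Il1a* stood at rank 3 with 16.1 CPM per kb instead of rank 6, with a range that met that of *Pycard* (14.8), then *Casp1* (11.6) and *Il1r1* (11.0). The lower end of the HPβCD order was *Gsdmd* (6.49), *Il1rn* (3.17), *Il1b* (2.07) and *Nlrp3* (1.42 CPM per kb), in which neighbours were not separated beyond their ranges.

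**Figure D5:**
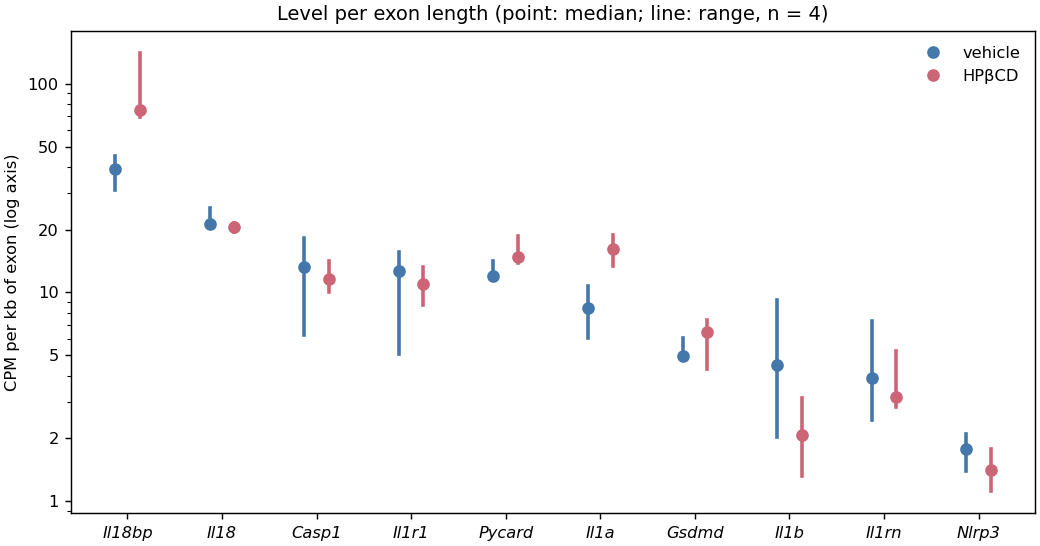
Level per exon length (CPM per kb of exon, log axis) of the 10 members in vehicle and HPβCD infarcts, ordered by the vehicle median; points are medians and lines the range of 4 libraries. *Il18bp* is highest and *Nlrp3* lowest in both groups, and *Il1a* moves from rank 6 to rank 3.

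The remaining genes of the pathway were read from 7 lists of 72 genes, of which 63 passed the filter. edgeR called 2 higher (*Ninj1* and *Panx1*) and 1 lower (*Il1rapl1*) in HPβCD infarcts, or 4.76% beside 1.95% of all genes. At an unadjusted p under 0.05 there were 13, which is 20.6% beside 27.8%. Without overlap between the groups 8 were higher (12.7% beside 8.77%) and 1 was lower (1.59% beside 8.03%). Their median log2 fold change was 0.13, beside -0.05 over all tested genes.

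Both genes that rose belong to the list of other inflammasome effectors, in which 7 of 9 genes had a positive log2 fold change. *Ninj1* encodes the membrane protein that ruptures the cell surface late in lytic death. It had 268, 269, 264 and 313 CPM in vehicle and 788, 523, 688 and 405 CPM in HPβCD infarcts, groups that did not overlap. Its log2 fold change was 1.11 (edgeR, SE 0.22, adjusted p = 0.0483). *Panx1* encodes a channel that releases ATP, a trigger of NLRP3. It had 19.5, 20.8, 21.9 and 22.9 CPM in vehicle and 46.8, 37.4, 46.0 and 30.0 CPM in HPβCD, with a narrow vehicle range and no overlap. *Panx1* rose by 0.91 on the log2 scale (edgeR, SE 0.17, adjusted p = 0.0483). These calls lay at the threshold. *Ninj1* had an adjusted p of 0.0843 and *Panx1* of 0.0717 by edgeR without both neuron-rich vehicle libraries, with log2 fold changes of 1.06 and 0.89. Both were also lost when HPβCD replicate 1, 2 or 3 or vehicle replicate 1 or 4 was left out, with edgeR adjusted p-values from 0.0660 to 0.175, and *Ninj1* narrowly without vehicle replicate 2 (edgeR adjusted p = 0.0513).

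Among 8 tested receptors, 6 had a negative log2 fold change, and the median was -0.62. At an unadjusted p under 0.05 there were 4 of 8, beside 27.8% of all genes. DESeq2 called 1 of 8 beside 17.0%, and limma-voom 6 of 8 beside 22.1%. *Il1rapl1*, a receptor-like protein of neuronal synapses that is named for its likeness to the interleukin 1 receptor accessory protein, fell. It had 13.1, 2.27, 22.3 and 4.63 CPM in vehicle and 0.747, 0.735, 1.02 and 0.999 CPM in HPβCD. The highest values were those of the neuron-rich vehicle replicates 1 and 3, and vehicle replicates 2 and 4 still lay above all HPβCD libraries. Its log2 fold change was -3.58 (edgeR, SE 0.70, adjusted p = 0.0483), and -1.94 (edgeR adjusted p = 0.0469) without both neuron-rich libraries. It was not called without HPβCD replicate 1, 2, 3 or 4 or vehicle replicate 1 or 4, where the log2 fold change lay between -3.82 and -3.46.

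The receptor of interleukin 18 was singled out after its values were seen, because its ligand and inhibitor are members. *Il18r1*, the binding chain, had 9.84, 14.0, 4.60 and 12.8 CPM in vehicle and 4.42, 3.86, 6.55 and 6.27 CPM in HPβCD. Apart from vehicle replicate 3, which lay within the HPβCD range, vehicle libraries were higher. For this chain the log2 fold change was -0.97 (edgeR, SE 0.35, adjusted p = 0.119), and -1.33 (edgeR adjusted p = 0.0425) without both neuron-rich libraries. limma-voom called *Il18r1* (log2 fold change -1.41, adjusted p = 0.00668) and DESeq2 did not (adjusted p = 0.0719). *Il18rap*, the accessory chain, had 7.13, 13.8, 7.02 and 8.44 CPM in vehicle and 5.40, 2.21, 7.83 and 7.38 CPM in HPβCD, overlapping values with a log2 fold change of -0.67 (edgeR, SE 0.40, adjusted p = 0.303). This chain too was called by limma-voom (log2 fold change -1.25, adjusted p = 0.0480) and not by DESeq2 (adjusted p = 0.324). Natural killer and T cells are known to carry this receptor. Natural killer cell markers summed to 5.21 to 19.8 CPM in vehicle and 8.76 to 14.7 CPM in HPβCD, and T lymphocyte markers to 77.9 to 108 and 66.7 to 164 CPM, both overlapping. Of these markers, 4 of 5 and 2 of 6 had a negative log2 fold change, and their part in the receptor values was not tested.

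In the 5 other lists edgeR called 0 of 46 tested genes. At an unadjusted p under 0.05 there were 7 (15.2% beside 27.8% of all genes), and DESeq2 called 1 (2.17% beside 17.0%) and limma-voom 4 (8.70% beside 22.1%). Of 6 further ligands, 4 were at 0 in every library. The tested ligands were *Il33*, an alarmin of glia and stroma with 81.9 to 211 CPM in vehicle and 146 to 156 CPM in HPβCD (log2 fold change -0.15, SE 0.27), and *Il36g*, an epithelial cytokine that did not exceed 3.30 CPM. Of 9 other sensors, 6 had a positive log2 fold change, with a median of 0.18. The highest mean CPM over all 8 libraries, not divided by exon length, was that of *Naip2* (38.4 to 85.5 CPM in vehicle, 83.5 to 130 CPM in HPβCD; log2 fold change 0.58, SE 0.26), and the next that of *Naip5* (6.78 to 18.9 and 11.8 to 24.9 CPM). Both are sensors of bacterial proteins upstream of NLRC4 and belong to a family of near-identical copies, whose counts are uncertain.

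Downstream of the receptors, 13 of 15 signalling genes had a positive log2 fold change, with a median of 0.14. Those with the highest mean CPM over all 8 libraries, not divided by exon length, were *Tab2* and *Map3k7*, which encode an adaptor and the kinase TAK1 that it binds. *Tab2* ranged from 125 to 203 CPM in vehicle and from 145 to 172 CPM in HPβCD, and *Map3k7* from 75.3 to 127 and from 91.5 to 121 CPM. Neither separated the groups. Of 11 tested genes known to respond to interleukin 1, 6 had a positive log2 fold change, with a median of 0.13. *Mmp3*, which encodes a matrix protease of stromal cells, had 204, 520, 317 and 518 CPM in vehicle and 596, 735, 799 and 665 CPM in HPβCD. *Icam1*, the adhesion molecule for leukocytes, had 103, 134, 66.6 and 121 CPM in vehicle and 188, 200, 245 and 153 CPM in HPβCD. In both the HPβCD libraries lay above all vehicle libraries, yet neither passed the edgeR test. *Mmp3* had a log2 fold change of 0.84 (edgeR, SE 0.30, adjusted p = 0.113) and *Icam1* of 0.89 (edgeR, SE 0.23, adjusted p = 0.0706). *Icam1* was called by DESeq2 (adjusted p = 0.0101) and limma-voom (adjusted p = 0.0108), and *Mmp3* by neither (adjusted p = 0.0505 and 0.0809). Fibroblast markers summed to 2348 to 6025 CPM in vehicle and 8657 to 9270 CPM in HPβCD without overlap. Of these markers 6 of 6 were higher, and edgeR called 2 of 6, beside 1.95% of all tested genes. Their part in the *Mmp3* values was not tested.

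Interferon γ is the cytokine through which interleukin 18 is best known to act, and it also induces *Il18bp*. Of 9 tested genes of its response 6 had a positive log2 fold change, with a median of 0.22. *Gbp2*, a GTPase strongly induced by interferon γ, had 225, 193, 111 and 209 CPM in vehicle and 300, 257, 551 and 228 CPM in HPβCD, without overlap and highest in HPβCD replicate 3, as was *Il18bp*. It had a log2 fold change of 0.85 (edgeR, SE 0.32, adjusted p = 0.132). The receptor chain *Ifngr1* ranged from 145 to 238 CPM in vehicle and from 163 to 278 CPM in HPβCD (log2 fold change 0.10, SE 0.22). *Ifng* itself failed the filter on low counts, with 0.0538 to 0.242 CPM in vehicle and 0.167 to 1.13 CPM in HPβCD, highest in HPβCD replicate 3.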

How the data were processed

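RNA was sequenced from 8 infarcts, 4 per group, grouped and numbered by the sample labels. The files the authors deposited hold raw counts per gene, one file per infarct, made from polyadenylated, strand-marked libraries. Per the study's methods and the submitters' processing notes, reads were handled with bcl2fastq 2.19, trimmed with Trimmomatic 0.32, aligned to GRCm38 with STAR 2.5.2b and counted with HTSeq. The counting version and its strand option are not given in the sources used here, so reads of a gene and its antisense partner may not be separated. Alignments to several places are not counted, which lowers genes with near-identical copies.

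Between 26.6% and 36.6% of counted reads or alignments fell in lines that name no gene and were left out. Symbols matched 45143 of 46078 identifiers. Coordinates and exon lengths are those of GENCODE M21 on GRCm38. edgeR 4.0.16 in R 4.3.3 was fitted to all genes kept by filterByExpr, with TMM factors, the robust quasi-likelihood F test, no covariate and Benjamini-Hochberg adjustment, and a gene is called where its adjusted p is under 0.05. Each SE is the log2 fold change divided by the square root of F. A prior count of 2 entered log2 CPM. The procedure was also run on simulated counts, drawn from the same mean profile for all libraries apart from genes changed on purpose. That run held no neuron-rich libraries, so it cannot show how the procedure behaves with them. DESeq2 1.42.0 and limma 3.58.1 (limma-voom) were alternatives, beside other scalings and filters, the replicate number as a block, each infarct left out, and both neuron-rich vehicle infarcts left out. The 3 ratios were compared by exact permutation over the 70 assignments of 8 infarcts to 4 and 4.

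Members, lists and tests were chosen with earlier results of these data known. All 10 members are named. From each pathway list the called genes are named, and otherwise the 2 with the highest mean CPM. *Il18r1*, *Il18rap* and *Ifng* were named after their values were seen, as were the marker genes *Ly6g*, *Mpo*, *Csf3r* and *Mmp9*. The labels give no batch. No 2 libraries agreed within sampling noise, with a lowest chi-square per degree of freedom of 20.3. Nothing beyond the replicate number states separate animals. The study describes individual mice, so each sample was taken as a separate mouse. All p-values take these samples as the units.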

Additional observations from a re-analysis of the deposited data

Results flagged for a closer look

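In HPβCD replicate 3, log2 CPM of *Il18bp* was 8.72, whereas the other HPβCD libraries lay between 7.71 and 7.84. The log2 ratio of *Il18bp* to *Il18* in the same library was 4.26, against 3.38 to 3.48 in the others. In each case the gap to the nearest library, divided by the range of the group, exceeded Dixon's critical value for 4 values. Both rest on the same *Il18bp* count. Of 28 groups of 4 values searched, 2 stood out in this way, and 1.4 would be expected by chance.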

How the results depend on the processing

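edgeR called 0 members, 3 pathway genes and 287 of all genes (173 higher, 114 lower). DESeq2 called 2 members and 2899 genes (1009 higher, 1890 lower), and limma-voom 4 members, 12 pathway genes and 3253 genes. A filter of at least 10 counts in every library and one of at least 1 count in any library each gave 1 member, *Il18bp*. The fit without the robust option called 0 pathway genes and 98 genes, and scaling by library totals, which moved the median log2 fold change of all genes from -0.05 to -0.13, called 0 and 11. With the replicate block, 0 pathway genes and 9 genes (0 higher, 9 lower) were called, and the log2 fold change of *Il1r1* was 0.04. The numbers do not pair the samples: correlations of same-numbered deviations were -0.257, 0.244, 0.329 and 0.0975.

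Leaving out one library left 0 members called and gave 0 to 6 pathway genes and 0 to 629 genes. The count over all genes was 0 without vehicle replicate 1 or 4 or HPβCD replicate 2 or 3, with 2922 to 4216 genes then at an unadjusted p under 0.05. It was 4 without HPβCD replicate 1, 353 without HPβCD replicate 4, 556 without vehicle replicate 2 and 629 without vehicle replicate 3. The log2 fold change then lay between -0.31 and 0.12 for *Il1r1*, -0.52 and 0.08 for *Il1rn*, -0.33 and 0.12 for *Casp1*, -0.07 and 0.18 for *Map3k7*, and -0.09 and 0.25 for *Ifngr1*. *Map3k7* was also at -0.04 with library totals, -0.11 with limma-voom and -0.14 without both neuron-rich vehicle libraries, and *Ifngr1* at -0.07 and -0.10 in the latter 2. The log2 ratio of *Il18bp* to *Il18* differed by 1.07 to 1.40 with one library left out and by 0.96 without both neuron-rich ones, and that of *Il1rn* to both ligands by -0.84 to -0.57 and by -0.69, in designs whose exact p cannot go below 0.0571 and 0.133. The causes of these changes were not tested. *Il18bp* kept its sign in 17 of 17 alternatives and passed in 4, with adjusted p-values from 0.000796 to 0.175. *Il1a* passed in 2 and *Il1b* and *Nlrp3* in 1 each, also with their sign kept. Among members the lowest count was that of *Il1b*, at 41 to 614 reads a library, so counting error weighs most on its values.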
